A study of Homo sapiens with 8 samples.

Results

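The albumin gene family comprises 4 genes for secreted plasma proteins: ALB (albumin), AFP (alpha-fetoprotein), AFM (afamin) and GC (the vitamin D-binding protein). Its members were chosen by name, and all 4 were found among the 58206 genes of the count table by Ensembl identifier. Of these, 3 passed the filter on low counts. AFM did not, so its counts are given, and its fold change comes from a fit without that filter.

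The family arose by duplication of an ancestral gene, and its proteins are carriers made mainly by the liver. Albumin carries fatty acids, hormones and drugs and is the most abundant protein of adult plasma. Alpha-fetoprotein is its fetal counterpart, which is shut down after birth and returns in many hepatocellular carcinomas, where it serves as a serum marker. Afamin binds vitamin E and Wnt proteins, and the GC product carries vitamin D metabolites and scavenges actin released from damaged cells.

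The measurements are RNA sequencing counts from Alexander1, an established human hepatocellular carcinoma line (ATCC CRL-8024). The 4 parental libraries carry the genotype label wt (Axin1 -), since the line has a defective Axin1, a scaffold that restrains Wnt signalling. The 4 restored-labelled libraries carry the label Axin1 + and come from a derivative that received Axin1 from an Addgene plasmid by VSVG retroviral transfer, followed by hygromycin B selection of clones. The labels do not say how many clones were used, and they give the transfer and selection text for all 8 samples. Cells of both genotypes were grown in the same serum-containing medium. Nothing in the labels says that replicates were separate cultures, so p-values measure only the spread between these samples, which may be technical.

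Total counts were 11232951 to 15263761 in the parental libraries and 12372436 to 26400782 in the restored-labelled ones. AXIN1 mRNA stood at 47.4 to 55.3 CPM (counts scaled to library size) in the parental and 37.7 to 48.2 CPM in the restored-labelled libraries, -0.21 on the log2 scale (SE 0.12, edgeR adjusted p = 0.267). The restored label was therefore not visible in AXIN1 reads, and directions below rest on the labels. Of 12 hepatocyte markers, ALB among them, all had more than 3 counts in some library, and their summed level was 25930 to 29942 CPM in the parental and 17797 to 20416 CPM in the restored-labelled libraries. The largest part of this sum was SERPINA1, with means of 16130 CPM in the parental and 10358 CPM in the restored-labelled libraries. Of the 11 markers tested, 1 rose and 3 fell (edgeR adjusted p under 0.05), where 10.4% and 8.77% of all tested genes did. Within this list CYP3A4, a drug-metabolizing enzyme of mature hepatocytes, never exceeded 18 counts. The 6 immune markers summed to 422 CPM in parental replicate 1, 852 to 949 CPM in the other parental libraries and 672 to 920 CPM in the restored-labelled ones. Nearly all of this was LYZ (lysozyme), while the leukocyte marker PTPRC had at most 2 counts and the T cell marker CD3E had 0. CD68 and CD14 of the same list reached 11 and 6 counts. The 7 stromal markers summed to 1.23 to 4.63 CPM, with up to 109 counts of COL1A1 and at most 1 of COL1A2 and PDGFRA. PDGFRB, on the same list, reached 32 counts and fell by 2.87 on the log2 scale (SE 0.53, edgeR adjusted p = 0.0045). The 5 endothelial markers summed to 4.58 to 6.77 CPM in the parental and 34.1 to 58.5 CPM in the restored-labelled libraries, nearly all PECAM1, with at most 2 and 0 counts of KDR and TEK. The part of these lists in the results was not tested.

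ALB, AFP and AFM lie in a row on the plus strand of chromosome 4 (GENCODE 29, GRCh38). ALB (ENSG00000163631) spans 73397114 to 73421412, AFP (ENSG00000081051) 73431138 to 73456174 and AFM (ENSG00000079557) 73481683 to 73504001. GC (ENSG00000145321) lies on the minus strand from 71741693 to 71804041, with its start at -1593 kb from that of ALB. No exon of another annotated gene overlaps an exon of the 4 genes. Their coding sequences are related but far from identical. ALB and AFP shared 59.4% of 1793 aligned bases, and the longest run of bases common to both was gcaagaaggcatcc, 14 bases long. For the other 5 pairs the identity was between 57.0% and 64.0% and the longest common run 12 bases. The use of strand in counting is not given in the sources used here.

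The promoters of the 3 clustered genes are shown because they stand beside each other in the genome and their genes had different levels in these libraries. HNF1 proteins are liver-enriched activators that bind the palindrome GTTAAT, any base, ATTAAC in promoters of this family. RefSeq places the start of ALB 7.17 kb, of AFP 5.08 kb and of AFM 0.062 kb after the GENCODE gene starts given above. The 150 bases before each RefSeq start come from its promoter table (GRCh38.p14, plus strand), at chr4:73404137-73404286 for ALB, chr4:73436071-73436220 for AFP and chr4:73481595-73481744 for AFM. Capitals mark matches to this motif with up to 2 mismatches.
ALB: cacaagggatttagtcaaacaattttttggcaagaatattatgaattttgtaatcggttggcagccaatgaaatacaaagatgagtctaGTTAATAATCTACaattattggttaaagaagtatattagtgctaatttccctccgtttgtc
AFP: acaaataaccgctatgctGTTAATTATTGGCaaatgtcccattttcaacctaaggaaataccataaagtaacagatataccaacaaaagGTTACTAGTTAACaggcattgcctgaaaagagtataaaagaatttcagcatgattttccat
AFM: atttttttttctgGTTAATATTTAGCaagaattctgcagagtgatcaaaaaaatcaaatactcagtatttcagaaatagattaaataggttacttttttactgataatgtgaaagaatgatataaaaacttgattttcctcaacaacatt

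Both strands were searched over 300 bases of each promoter, the last 50 of them after the start. ALB had 1 such match, at -61 to -49 from the start. AFP had 2, at -132 to -120 and at -61 to -49, and AFM had 1, at -137 to -125. A match of this kind was found in 461 of 35116 promoters of that length (1.31%), and in 6 of the 22 promoters found for a list of other plasma protein genes. TATAAA stood at -29 to -24 in AFP and at -30 to -25 in AFM and was not found in ALB, against 11.5% of all promoters. CCAAT, on either strand, was found at 2 places each in ALB and AFP, against 34.6% of all promoters, and the AFP copy at -125 to -121 overlaps the first HNF1 match. The sequence CTTTGAT, a core of TCF/LEF sites, was in none of the 3 windows and in 2.62% of all promoters. These matches describe letters and show no binding.

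GC, the vitamin D-binding protein gene, fell in the restored-labelled libraries and was the only member past the threshold (adjusted p under 0.05) with all 8 libraries. Parental replicates 1 to 4 had 49.1, 184, 239 and 219 CPM of GC. In restored-labelled replicates 1 to 4 it was 10.5, 7.51, 5.12 and 4.49 CPM. The lowest parental value thus lay above the highest restored-labelled one, and parental replicate 1 was far below the other parental libraries. The means were 173 CPM ± 85.5 and 6.92 CPM ± 2.75 (SD, n = 4 each), 25.0-fold apart. On the log2 scale GC fell by 4.64 (SE 0.48; the 95% interval runs from -5.69 to -3.58), and edgeR's quasi-likelihood test gave an adjusted p of 0.00018 over all 14289 genes tested. Permuting the labels of log2 CPM exactly, two-sided, gave p = 0.0286, which no 4 against 4 design can go below. Of all tested genes 19.2% passed the same threshold, 8.77% downward, and 23.9% had labels whose values did not overlap. In bulk RNA, fewer cells expressing a gene and less RNA per cell cannot be told apart.

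AFP, the fetal member, had lower values in most restored-labelled libraries without passing the threshold. It stood at 536, 302, 279 and 324 CPM in parental replicates 1 to 4. The restored-labelled libraries had 311, 146, 118 and 79.7 CPM. Restored-labelled replicate 1 lay within the parental range, and the other 3 lay below every parental library. The means were 360.1 CPM ± 119 and 164 CPM ± 102 (SD, n = 4 each), and the AFP log2 fold change was -1.14, with SE 0.37 and a 95% interval of -1.95 to -0.32 (edgeR adjusted p = 0.0538). Exact permutation, two-sided, gave p = 0.0857. The adjusted p lay close to the threshold, and AFP passed in 7 of 17 alternatives and not in 10. It passed with DESeq2 size factors (edgeR adjusted p = 0.0492), with limma-voom (adjusted p = 0.0268) and with the DESeq2 Wald test (adjusted p = 0.0090). On simulated data DESeq2 made more false calls than its threshold allows. AFP did not pass with upper-quartile factors (edgeR adjusted p = 0.0521) or total counts only (edgeR adjusted p = 0.0732).

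ALB, the adult member, had no difference past the threshold with all 8 libraries, and replicate 1 of each label was the low library. It stood at 46.7, 196, 208 and 159 CPM in parental replicates 1 to 4. Restored-labelled replicate 1 had 13.8 CPM, the lowest of all 8 libraries, whereas replicates 2 to 4 had 445, 681 and 598 CPM, the 3 highest. The parental values therefore lay inside the restored-labelled range. Means were 152 CPM ± 73.3 and 435 CPM ± 297 (SD, n = 4 each). The ALB log2 fold change was 1.51, with SE 0.80 and a 95% interval from -0.25 to 3.27 (edgeR adjusted p = 0.211). Exact permutation, two-sided, gave p = 0.657. The estimate was 0.81 with limma-voom (adjusted p = 0.616). Without an expression filter it was nearly the same as in the main fit, at 1.53, but passed with a smaller SE of 0.39 (edgeR adjusted p = 0.0050).

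AFM, the afamin gene, was near the limit of detection. It had 0, 9, 1 and 5 counts in parental replicates 1 to 4 and 3, 6, 9 and 10 counts in the restored-labelled ones. The 0 in parental replicate 1 allows a level of up to 0.267 CPM (3 counts), which covers counting error only. Means were 0.264 CPM ± 0.276 and 0.359 CPM ± 0.173 (SD, n = 4 each). The fit without a filter gave a log2 fold change of 0.32 (SE 0.72, 95% confidence interval -1.12 to 1.76, edgeR adjusted p = 0.818), where 10.6% of 30224 genes were called. Exact permutation, two-sided, gave p = 0.486, and a difference was not detectable at this depth.

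**Figure D1:**
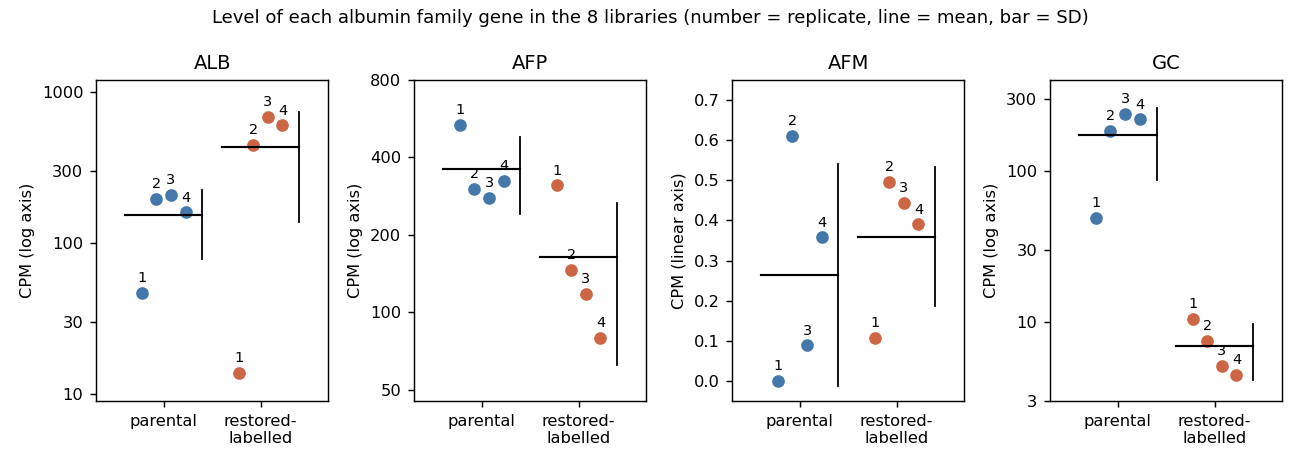
Level in CPM of ALB, AFP, AFM and GC in the 4 parental (blue) and 4 restored-labelled (orange) libraries; each point is a library with its replicate number, horizontal lines are means and vertical bars are SDs. Axes are logarithmic except for AFM. The labels separate only in GC, whose lowest parental value is 49.1 CPM and highest restored-labelled value 10.5 CPM; in ALB replicate 1 of each label is the lowest library.

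Replicate 1 of each label differed from its 3 companions in the family genes. ALB was 4.01-fold below the mean of the other parental libraries in parental replicate 1, and 41.6-fold below that of the other restored-labelled libraries in restored-labelled replicate 1. AFP went the other way, 1.78-fold and 2.71-fold above its companions in the same libraries. GC was 4.36-fold below them in parental replicate 1 and 1.85-fold above them in restored-labelled replicate 1. The range of ALB among the restored-labelled libraries, 5.61 on the log2 scale, exceeded that of 99.96% of the 9372 tested genes with a mean of at least 10 CPM, whose median range was 0.46. In the parental libraries its range of 2.15 exceeded that of 99.2% of those genes. Summed biliary markers were also highest in these libraries, at 58.5 CPM in parental replicate 1 against 27.1 to 32.6 CPM in the other parental ones, and 87.7 CPM in restored-labelled replicate 1 against 39.6 to 42.9 CPM. The biliary marker CFTR, an ion channel, was instead lowest in replicate 1 of each label, at 0.534 CPM against 1.69 to 2.93 CPM in the parental and 8.11 CPM against 10.5 to 14.8 CPM in the restored-labelled libraries. The summed stromal markers were highest in restored-labelled replicate 1, at 4.63 CPM, of which COL1A1 made up 3.91 CPM. In parental replicate 1 they stood at 2.94 CPM, below the 3.22 CPM of parental replicate 4. The part of these markers in the ALB and AFP values was not tested.

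Without replicate 1 of each label, a choice made after these values were seen, ALB and AFP passed the threshold in opposite directions. ALB then had 188 CPM ± 25.2 in the parental and 575 CPM ± 119.8 in the restored-labelled libraries (SD, n = 3 each). It rose by 1.62 on the log2 scale (SE 0.17, 95% interval 1.26 to 1.98, edgeR adjusted p = 1.2e-05). AFP had 301 CPM ± 22.5 and 115 CPM ± 33.5 (SD, n = 3 each) and fell by 1.39 (SE 0.19, 95% interval -1.80 to -0.99, edgeR adjusted p = 0.0001). The log2 fold change of GC was then -5.26 (SE 0.20, edgeR adjusted p = 1.4e-09). Parental and restored-labelled libraries were then apart in ALB, AFP and GC, while 45.6% of the 14332 genes tested in these 6 libraries did not overlap and 32.3% were called. Exact permutation gave p = 0.10 for each of these 3 genes, the lowest value possible with 3 against 3. Leaving out restored-labelled replicate 1 alone sufficed for both calls (ALB 1.91, edgeR adjusted p = 0.0087; AFP -1.65, edgeR adjusted p = 0.0026), and leaving out parental replicate 1 alone did not (adjusted p of 0.285 and 0.0826).

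To compare levels between the genes, CPM were divided by the exon length of each gene. In the parental libraries AFP was the most abundant member, at 110.5 CPM per kb ± 36.4 (SD, n = 4), followed by GC at 72.6 ± 35.9, ALB at 45.1 ± 21.7 and AFM at 0.118 ± 0.123. Neighbours from AFP to ALB in this order lay within their spreads, and AFM was below all of them. In the restored-labelled libraries the order was ALB at 129 CPM per kb ± 88.0, AFP at 50.2 ± 31.2, GC at 2.91 ± 1.15 and AFM at 0.160 ± 0.0771 (SD, n = 4 each), with ALB and AFP within their spreads and GC and AFM below both on average. Within single libraries AFP was first in parental replicates 1, 2 and 4, and GC was first in parental replicate 3. In restored-labelled replicates 2 to 4 ALB was first, and in restored-labelled replicate 1 AFP was first and ALB, at 4.09 CPM per kb, lay just below GC at 4.43. Some of these orders depend on the exon lengths used. Before the division ALB lay above GC in restored-labelled replicate 1 (13.8 against 10.5 CPM) and parental replicate 2 (196 against 184 CPM). Likewise, AFP lay above GC in parental replicate 3 (279 against 239 CPM).

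The make-up of the family differed between libraries, as its members' shares show. ALB took 6.96%, 25.4%, 24.9% and 19.8% of the summed CPM per kb in parental replicates 1 to 4. It took 3.94%, 73.2%, 83.9% and 87.0% in the restored-labelled ones. GC took 10.4%, 33.9%, 40.6% and 38.5% in the parental libraries and between 0.896% and 4.26% in the restored-labelled libraries. AFP dominated both replicate 1 libraries, with 82.7% and 91.8%. The sum itself was 199 to 247 CPM per kb in the parental libraries and 180.1, 240.2 and 204 CPM per kb in restored-labelled replicates 2 to 4, with 104 CPM per kb in restored-labelled replicate 1. Per kb, ALB thus placed above 99.2% of the detected genes in restored-labelled replicates 3 and 4, and above 68.8% in restored-labelled replicate 1.

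**Figure D2:**
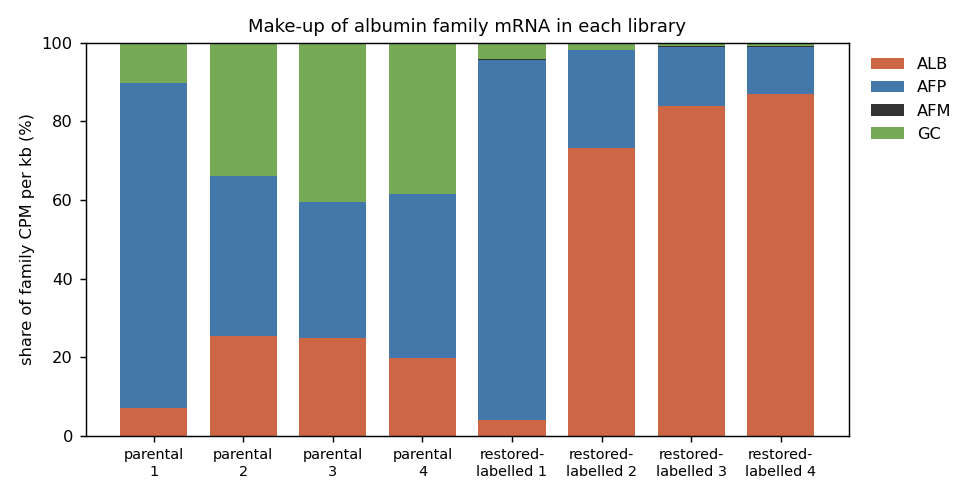
Share of each gene in the summed CPM per kb of the albumin family, 1 bar for each of the 8 libraries. GC (green) holds 10.4% to 40.6% of the parental bars and at most 4.26% of the restored-labelled bars; AFP (blue) fills 82.7% and 91.8% of the 2 replicate 1 bars, and AFM is too scarce to see.

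Ratios within a library do not depend on how libraries are scaled, and 3 were compared between the labels. Per kb, AFP was 11.9, 1.60, 1.39 and 2.10 times ALB in parental replicates 1 to 4. It was 23.3, 0.341, 0.180 and 0.138 times ALB in the restored-labelled ones. The highest and the lowest ratios thus both belonged to restored-labelled libraries, and the log2 ratio of counts, restored-labelled minus parental, was -2.03 (exact permutation p = 0.371, adjusted p = 0.557 over the 3 ratios). It ranged from -3.74 without restored-labelled replicate 1 to -1.28 without restored-labelled replicate 4, and was -3.04 without replicate 1 of each label. GC and ALB, by contrast, stood close to each other in every parental library, at 1.49, 1.33, 1.63 and 1.95 per kb. In restored-labelled replicate 1 their ratio was still 1.08, and in replicates 2 to 4 it was 0.0240, 0.0107 and 0.0106. The same difference in its log2 value was -5.25, with no overlap of the labels (exact permutation p = 0.0286, adjusted p = 0.0857), and ran from -6.82 to -4.60 without restored-labelled replicate 1 and replicate 4, respectively. The log2 ratio of AFM to ALB differed by 0.01 (exact permutation p = 1.00).

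Across the 8 libraries the log2 levels of ALB and AFP ran in opposite order, with a Pearson r of -0.76 and a Spearman rho of -0.90, given as a description. For AFP and GC r was 0.71, and for ALB and GC -0.22. These points share libraries and totals, and each label holds only 4 of them.

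**Figure D3:**
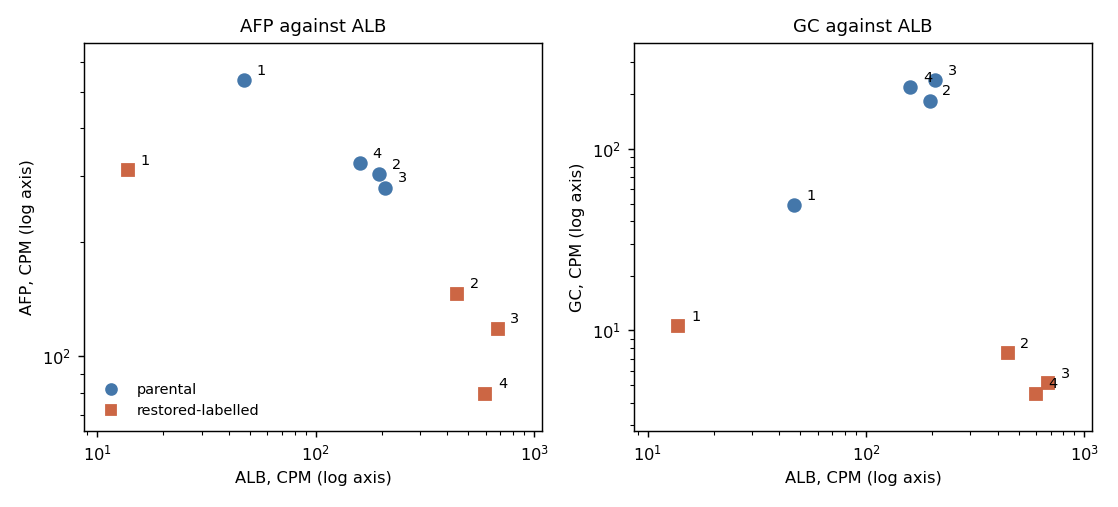
CPM of AFP (left) and GC (right) against CPM of ALB, both axes logarithmic; blue circles are parental and orange squares restored-labelled libraries, with replicate numbers. AFP is high where ALB is low, from 536 CPM at 46.7 CPM of ALB to 79.7 CPM at 598 CPM; GC and ALB are both low in parental replicate 1, and the restored-labelled libraries stay at or under 10.5 CPM.

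Genes with the most similar pattern were sought among tested genes with a symbol and a mean of at least 1 CPM, by the Pearson correlation of log2 CPM over the 8 libraries. A gene chosen in this way follows the member's difference between the labels, so the fold changes of these genes are a description, with no test. For ALB these were UGT2B7 (r = 0.99), which encodes a glucuronosyltransferase of the liver, DNAJC21 (0.96), FBLIM1 (0.96) and CHCHD4 (0.95). They varied far less than ALB: UGT2B7 lay between 12.4 CPM in restored-labelled replicate 1 and 24.6 CPM in restored-labelled replicate 2. For AFP they were SIPA1, RHOC, DGUOK-AS1 and MMP19 (r of 0.98 each). The log2 fold change was -0.91 (SE 0.23) for RHOC, a small GTPase of the cytoskeleton, and -2.53 (SE 0.61) for MMP19, a matrix metalloproteinase. For GC they were FGF12, GAS2, PABPC4 and ATIC (r of 0.99 each). Their log2 fold changes ran from -0.60 for PABPC4 (SE 0.12) to -2.83 for GAS2 (SE 0.30), and GAS2 stood at 4.63 to 11.05 CPM in the parental and 1.07 to 1.47 CPM in the restored-labelled libraries.

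Factors that act on the albumin and alpha-fetoprotein promoters and enhancers were described through 24 genes, of which 23 were tested, 1 rose and 2 fell, where 19.2% of all tested genes were called. Their median log2 fold change was -0.12, against 0.003 for all genes tested. Without replicate 1 of each label 3 rose and 3 fell, where 32.3% of all tested genes were called. HNF4A, a nuclear receptor that drives many hepatocyte genes, stood at 228 to 367 CPM in the parental and 256 to 384 CPM in the restored-labelled libraries (log2 fold change 0.09, SE 0.18, edgeR adjusted p = 0.772). Its value was -0.03 without parental replicate 1. CEBPB, a leucine zipper factor of the acute phase, was at -0.11 (SE 0.18, edgeR adjusted p = 0.691), and at 0.02 without parental replicate 1. NR2F1, the orphan receptor COUP-TFI, rose from 0.178 to 0.948 CPM in the parental to 0.789, 4.54, 4.88 and 5.31 CPM in the restored-labelled libraries (log2 fold change 2.67, SE 0.62, edgeR adjusted p = 0.0136). The label ranges overlapped through restored-labelled replicate 1, and the call was lost with limma-voom. ZFHX3, a repressor of AFP also called ATBF1, fell from 47.9 to 70.0 CPM to 31.8 to 37.1 CPM (log2 fold change -0.64, SE 0.15, edgeR adjusted p = 0.0129).

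Other secreted plasma proteins did not share one direction. Of 30 listed genes 24 were tested, 6 rose and 6 fell, where 10.4% of all tested genes rose and 8.77% fell, and the median log2 fold change was -0.24. The fibrinogen chains FGB and FGG, subunits of the clot protein, rose with log2 fold changes of 2.05 (SE 0.18, edgeR adjusted p = 6.4e-05) and 1.60 (SE 0.17, edgeR adjusted p = 0.00023). FGB stood at 688 to 916 CPM in the parental and 2257 to 3503 CPM in the restored-labelled libraries. AHSG, the plasma carrier protein fetuin-A, fell from 242 to 622 CPM to 34.7 to 77.2 CPM (log2 fold change -3.22, SE 0.34, edgeR adjusted p = 0.0002). ITIH2, a heavy chain of the inter-alpha-trypsin inhibitors, fell from 332 to 491 CPM to 79.1 to 114 CPM (log2 fold change -2.08, SE 0.17, edgeR adjusted p = 3.9e-05). APOB, the core protein of low-density lipoprotein, was at -0.18 (SE 0.18, edgeR adjusted p = 0.521), and AMBP, the precursor of alpha-1-microglobulin and bikunin, at -0.43 (SE 0.19, edgeR adjusted p = 0.146).

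Oncofetal genes, which like AFP are expressed in fetal liver and again in liver tumours, were described through 16 genes, 11 of them tested. In this list 1 rose and 5 fell, where 10.4% and 8.77% of all tested genes did, and the median log2 fold change was -0.19. The gene that rose, named after its values were seen, was TSPAN8. It went from 20.9 to 39.5 CPM in the parental to 41.0 to 95.6 CPM in the restored-labelled libraries (log2 fold change 1.28, SE 0.28, edgeR adjusted p = 0.0102). GPC3, a heparan sulfate proteoglycan used as a tumour marker beside AFP, fell from 444 to 587 CPM to 102 to 135 CPM (log2 fold change -2.12, SE 0.15, edgeR adjusted p = 1.5e-05). SALL4, a zinc finger factor of stem cells, fell from 31.8 to 36.0 CPM to 10.1 to 19.2 CPM (log2 fold change -1.41, SE 0.21, edgeR adjusted p = 0.0014). The imprinted RNA H19 fell by 3.42 on the log2 scale (SE 0.69, edgeR adjusted p = 0.0071), with overlapping values of 11.7 to 125 CPM and 2.54 to 12.6 CPM. IGF2BP2, an RNA-binding protein, fell by 0.58 on the log2 scale (SE 0.11, edgeR adjusted p = 0.0062), and its paralog IGF2BP1 was at -0.10 (SE 0.13, edgeR adjusted p = 0.636). PEG10, an imprinted retrotransposon-derived gene, was at -0.08 (SE 0.40, edgeR adjusted p = 0.914), with 61.9 CPM in parental replicate 1 and 205 to 406 CPM elsewhere, and at 0.25 without parental replicate 4, 0.20 with limma-voom and 0.16 with the replicate number as a term.

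Receptors, enzymes and partners that handle the family's ligands formed a list of 17 genes, 16 of them tested. Here 4 rose and 5 fell, where 10.4% and 8.77% of all tested genes did. The median log2 fold change was 0.16. With single libraries left out, 5 to 10 genes of this list were called, while the number of all genes called ran from 1394 to 3523, against 2738 with all 8 libraries. FCGRT, the receptor that recycles albumin, had 163 to 207 CPM in the parental and 163 to 252 CPM in the restored-labelled libraries (log2 fold change 0.13, SE 0.15, edgeR adjusted p = 0.590). SCARB1, a lipoprotein receptor that also takes up vitamin E, was at 0.19 (SE 0.14, edgeR adjusted p = 0.356). Of genes around the GC protein, CYP27B1, which makes the active form of vitamin D, fell by 1.23 on the log2 scale (SE 0.22, edgeR adjusted p = 0.0037). CYP27A1, a sterol hydroxylase that also acts on vitamin D, fell by 1.40 (SE 0.32, edgeR adjusted p = 0.0132), and its restored-labelled libraries held 15.7 CPM in replicate 1 and 5.04 to 8.62 CPM elsewhere. Other vitamin D genes of the list, named after their values were seen, did not share this direction. The receptor gene VDR rose by 2.07 (SE 0.50, edgeR adjusted p = 0.0172), from 0.178 to 1.00 CPM to 1.32 to 2.23 CPM. CYP2R1 was at 0.66 (SE 0.22, edgeR adjusted p = 0.0587) and CYP24A1 at -0.41 (SE 0.25, edgeR adjusted p = 0.282). ACTB, the actin that the GC protein binds, fell by 0.83 (SE 0.16, edgeR adjusted p = 0.0055). DAB2, an adaptor for endocytosis of the receptors megalin and cubilin, rose by 1.43 (SE 0.24, edgeR adjusted p = 0.0027). The genes of these receptors, on the same list and also named after their values were seen, did not rise with it. LRP2 (megalin) fell by 1.64 (SE 0.41, edgeR adjusted p = 0.0183), and CUBN (cubilin) never exceeded 3 counts.

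**Figure D4:**
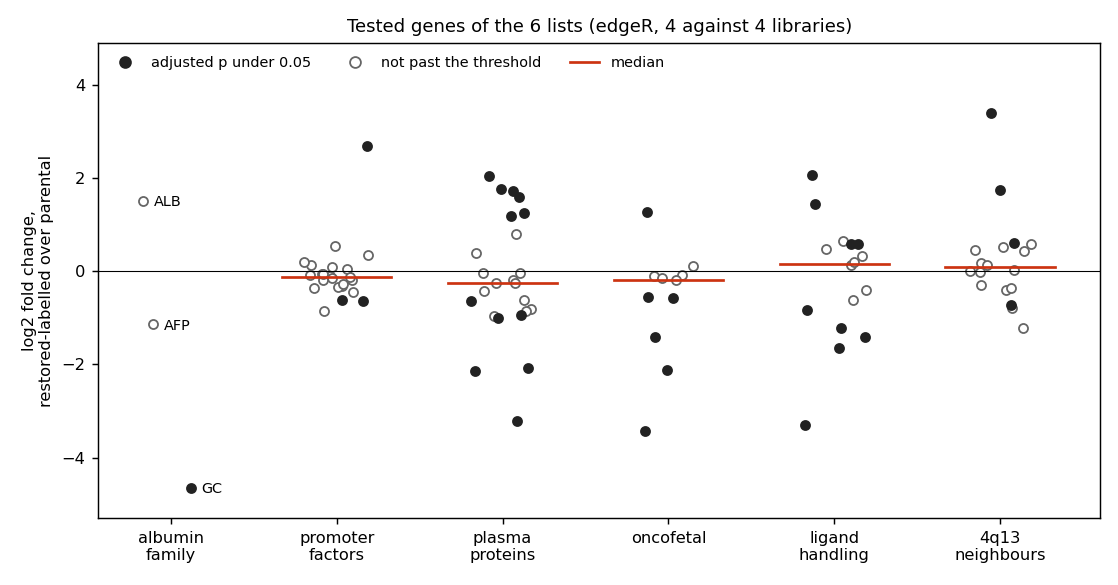
Log2 fold change (restored-labelled over parental) of the tested genes of the albumin family and 5 lists; each point is a gene, filled where its edgeR adjusted p is under 0.05, and red lines are list medians. GC at -4.64 is the lowest point, and the list medians lie between -0.24 and 0.16.

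Finally, the genes that flank the family on chromosome 4 were compared, from the enamel protein genes before GC to PARM1 after the chemokine and growth factor clusters. Of 30 neighbours 18 were tested, 3 rose and 1 fell, a share close to the 19.2% of all tested genes called, and their median log2 fold change was 0.08. The 4 calls became 7 and 8 without parental or restored-labelled replicate 1, and 2 without parental replicate 2. Calls across the genome moved as well, from 2738 in the main fit to 3523 without parental replicate 1 and 1508 without parental replicate 2. Without replicate 1 of each label, 10 of 19 neighbours were called, where 32.3% of all tested genes were called. A shift particular to these neighbours was not tested. The tested genes nearest to the cluster on its side toward GC were ANKRD17 and COX18, at 0.14 (SE 0.12, edgeR adjusted p = 0.469) and 0.46 (SE 0.19, edgeR adjusted p = 0.112). On the other side RASSF6, a Ras association domain gene whose start lies 224 kb from that of ALB, rose from 1.43 to 2.58 CPM to 6.39 to 7.22 CPM (log2 fold change 1.74, SE 0.23, edgeR adjusted p = 0.00081). PARM1, at 1536 kb, rose by 3.40 on the log2 scale (SE 0.45, edgeR adjusted p = 0.00073), and by 4.20 without replicate 1 of each label. MTHFD2L, a mitochondrial folate enzyme gene, rose by 0.60 (SE 0.17, edgeR adjusted p = 0.0286), a call lost in 7 of 17 alternative analyses, and RUFY3 fell by 0.73 (SE 0.20, edgeR adjusted p = 0.0272), a call lost in 3. AREG, an epidermal growth factor receptor ligand, was at -0.78 (SE 0.30, edgeR adjusted p = 0.0921), and the chemokine CXCL5 at 0.03 (SE 0.32, edgeR adjusted p = 0.961). CXCL5 was at -0.46 without replicate 1 of each label. Of the listed genes on either side of GC, SLC4A4, a bicarbonate transporter gene, was at 0.44 (SE 0.34, edgeR adjusted p = 0.388), and NPFFR2 did not pass the filter. NPFFR2 had 0.356, 2.03, 3.21 and 1.93 CPM in parental replicates 1 to 4 and 0 to 0.165 CPM in the restored-labelled libraries. Without replicate 1 of each label it passed the filter and was called, at -4.64 (edgeR adjusted p = 6.6e-05), with at most 36 counts in any library. SLC4A4 and NPFFR2 are named after their values were seen, as are ANKRD17, COX18 and the genes of the cell type markers.

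**Figure D5:**
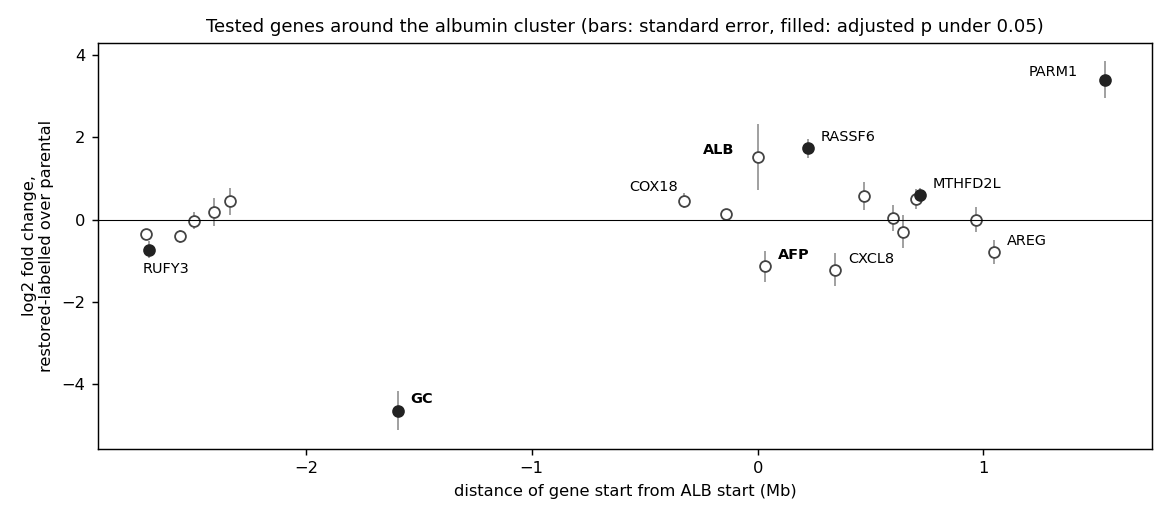
Log2 fold change (restored-labelled over parental) of tested genes around the albumin cluster against the distance of their start from that of ALB in Mb; bars are standard errors and filled points have an edgeR adjusted p under 0.05. ALB (1.51) and AFP (-1.14) lie on opposite sides of 0, with GENCODE starts 34.0 kb apart, and GC (-4.64) is the lowest point.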

How the data were processed

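Per the submitters' processing notes, bcl2fastq, fastp 0.23.1 and STAR 2.7.4 were used with GRCh38; the counting program, annotation and use of strand are not given in the sources used here. Whole-number counts per gene, not normalized, are what the deposited table holds, and 0 of its columns belonged to no sample. Groups come from the sample titles. Symbols came from a table in which 57495 of 58206 identifiers were found, positions and exon lengths from GENCODE 29 (57943 found).

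In R 4.3.3, edgeR 4.0.16 (filterByExpr with minimum count 10 and total 15, TMM scaling, quasi-likelihood test, no covariates, two-sided) was fitted to all genes, with Benjamini-Hochberg adjustment over 14289 genes and a threshold of 0.05. Standard errors are the absolute log2 fold change over the root of F. Exact permutation tests used all 70 labelings of log2 CPM (prior count 2) or of log2 ratios of counts (0.5 added). Depth is the total of each column, and 3 counts correspond to 0.108 to 0.267 CPM. The members, lists and tests were chosen with earlier results of these data known. From each list the text names up to 4 called genes with the smallest p and the 2 most abundant others, and for each tested member the 4 most correlated genes; 1 gene of the promoter factor list is not reported here. Promoters are from RefSeq; that of GC is not shown. Alternatives were other scalings, filters and tests (DESeq2 1.42.0, limma 3.58.1), the replicate number as a block, a threshold of 0.01, a ratio pseudocount of 2 and leaving out libraries. The tests were tested on simulated data with known changes, where DESeq2 made more false calls than its threshold allows.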

Additional observations from a re-analysis of the deposited data

Results flagged for a closer look

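In 6 of 72 sets of 4 libraries examined (each named list gene and member, and each ratio, per label), 1 library stood further from the others than Dixon's critical value allows; chance flags about 1 in 20 such sets. In restored-labelled replicate 1, FGB was lowest at 2257 CPM against 3452 to 3503 CPM in the others, NR2F1 lowest at 0.789 CPM, DAB2 lowest at 41.4 CPM and SALL4 highest at 19.2 CPM. In parental replicate 1, ZFHX3 was highest at 70.0 CPM and APOB lowest at 2529 CPM. These comparisons used CPM, and log2 values for the ratios. No set of the 4 family genes or of their ratios was among these 6 on those scales. On log2 CPM, a scale added after seeing the data for the 4 family genes, ALB of restored-labelled replicate 1 (13.8 CPM) and GC of parental replicate 1 (49.1 CPM) also stood beyond the critical value, with gaps of 0.891 and 0.834 of their label's range.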

How the results depend on the processing

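GC kept its direction and its call in all 17 alternatives. The ALB log2 fold change passed the threshold without an expression filter (1.53), without restored-labelled replicate 1 (1.91) and without replicate 1 of each label (1.62). It did not pass in the other 14 alternatives, and ranged from 1.21 to 1.91 with single libraries left out. The AFP log2 fold change passed with DESeq2 size factors (-1.15), no expression filter (-1.10), the DESeq2 Wald test (-1.15), limma-voom (-1.28) and the replicate block (-1.27). It also passed without restored-labelled replicate 1 (-1.65) and without replicate 1 of each label (-1.39). It did not pass in the other 10 alternatives, and ranged from -1.65 to -0.88 with single libraries left out. With single libraries left out, the AFM log2 fold change ranged from -0.068 (no parental replicate 1) to 1.12. The AFM to ALB log2 ratio was -0.57 with a pseudocount of 2, -1.07 without replicate 1 of each label and between -0.85 and 0.39 with single libraries left out. The number of genes called, 2738, was 964 at an adjusted p under 0.01, 4623 without replicate 1 of each label, and 1394 to 3523 with single libraries left out (1508 without parental replicate 2, 1531 and 1394 without restored replicates 3 and 4). Over single libraries left out, the CEBPB log2 fold change ranged from -0.22 to 0.020, the HNF4A log2 fold change from -0.032 to 0.19, the PEG10 log2 fold change from -0.40 to 0.25 (0.20 with limma-voom, 0.16 with the replicate block) and the CXCL5 log2 fold change from -0.22 to 0.24 (-0.21 without restored replicate 1, -0.46 without both replicates 1). The cause was not tested.

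Over all tested genes, deviations of same-numbered libraries from their label means correlated at -0.06, 0.0067, -0.03 and 0.23. Not every library correlated best with its own number. These correlations do not tell whether replicate numbers paired the libraries in part of the genes. With the replicate block the AFP log2 fold change passed (-1.27, adjusted p = 0.0092), the ALB log2 fold change was 0.90 (adjusted p = 0.323) and the number of genes called was 2033. Ratios to ALB had the same values under the block, with 0.125 the smallest p that 4 pairs allow, and with a library left out they could not reach a p below 0.0571. Depth limits AFM, which had at most 10 counts per library.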

Other observations

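Among the markers of other liver cell types, the biliary keratin KRT19 and the secreted matrix protein SPP1, both chosen after their values were seen, had their highest level of each label in replicate 1, where ALB was lowest. KRT19 stood at 16.9, 3.99, 2.49 and 1.29 CPM in parental replicates 1 to 4 and at 34.4, 0.165, 1.43 and 0.0781 CPM in the restored-labelled ones. SPP1 stood at 5.16 CPM in parental replicate 1 and 1.22 to 2.22 CPM in the other parental libraries, and at 10.8 CPM in restored-labelled replicate 1 and 0 to 0.345 CPM in the others. CFTR, on the same list, was lowest in replicate 1 of each label and rose (log2 fold change 2.54, SE 0.39, edgeR adjusted p = 0.0017), and EPCAM never exceeded 5 counts. FABP1, the liver fatty acid-binding protein, also fell, from 273, 1055, 587 and 307 CPM in parental replicates 1 to 4 to 165, 32.9, 17.1 and 8.31 CPM (log2 fold change -3.31, SE 0.84, edgeR adjusted p = 0.0206), or -5.10 without replicate 1 of each label. PECAM1, an adhesion molecule listed as an endothelial marker, rose from 4.47 to 6.50 CPM to 33.8 to 58.3 CPM (log2 fold change 3.22, SE 0.21, edgeR adjusted p = 8.4e-06), while VWF, CDH5, KDR and TEK of the same list had at most 6 counts.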
